A study of Mus musculus with 8 samples.

Results

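The small leucine-rich proteoglycans (SLRPs) are secreted matrix proteins, and 10 of their genes were followed in mouse cardiac fibroblasts kept in osteogenic differentiation medium. They were found by symbol, as Dcn, Bgn, Lum, Fmod, Omd, Ogn, Aspn, Prelp, Podn and Kera, and all 10 had a row among the 24015 gene symbols of the deposited table. RNA was sequenced on days 0, 7, 14 and 21 of differentiation, with 2 libraries at each of these 4 times and 8 libraries in all. All cells were wild-type cardiac fibroblasts of C57BL/6J mice aged 8 weeks. The sources used here do not give what the medium contained. The labels do not tell if both libraries of a day stem from different dishes or mice. The p-values therefore speak of the spread between these libraries, pooled over the 4 times, and no more. No library was a culture of the same age without the medium, so time in culture and differentiation cannot be told apart.

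An SLRP core is a curved solenoid of leucine-rich repeats that lies on collagen fibrils. The proteins set fibril diameter and spacing, and several also hold growth factors of the TGF-beta family in the matrix. Class I (decorin, biglycan, asporin) mostly carries chondroitin or dermatan sulfate chains, class II (lumican, fibromodulin, PRELP, osteomodulin, keratocan) keratan sulfate or unmodified sugar chains, and osteoglycin belongs to class III and podocan to class V. In the heart they are largely products of fibroblasts, and several are named for the bone or cartilage they were first isolated from.

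Depth was between 13399313 and 21883498 reads in genes per library. All values below are normalized counts, which are reads divided by 1 size factor per library. All 8 fibroblast markers examined had reads in every library, Pdgfra between 3864 and 10112 normalized counts. Macrophage markers other than Fcgr1 also had reads in every library, so reads alone do not set the cell type. Against day 0, 4 fibroblast markers were higher and 3 lower on day 7, and the same on day 21. On day 14 it was 3 higher and 4 lower. Of all tested genes, 55.4% changed on day 7, 70.7% on day 14 and 59.4% on day 21. Of 7 osteoblast markers, Sp7 and Ibsp had 0 reads in every library, Bglap and Bglap2 stayed at or below 7.48 normalized counts, and Runx2 was at 162 to 324 throughout. Alpl was at 630.2 and 351 on day 21, against 125 and 209 on day 0, and Dmp1 was at 6.41 to 11.7 at the later times, against 0.796 and 1.31 on day 0. Of the 3 that could be tested, 1 was higher and 1 lower than on day 0 on both day 7 and day 14. On day 21, 2 were higher and 0 lower, where 29.8% of all tested genes were higher and 29.5% lower. Dmp1 passed the filter of at least 10 normalized counts in at least 2 libraries only through the later days, so its call adds no support. Markers of other cells moved with time: the 7 macrophage markers summed to 949.8 to 1004 normalized counts on day 0, 8486 to 10627 on day 7, 18643 to 34831 on day 14 and 17683 to 18495 on day 21. Adipocyte markers summed to 929.6 to 1212 on day 0, 8252 to 8542 on day 7, 11505 to 12118 on day 14 and 7347 to 7519 on day 21. Nearly all of that sum was Lpl and Fabp4. Adipoq reached at most 35.0 normalized counts, Plin1 24.3, Cidec 8.75 and Lep 1.17. Pparg was at 89.7 and 110 on day 21, against 17.5 and 28.8 on day 0. Among cardiomyocyte markers Myh6 had 0 reads throughout, while Tnnt2 was between 5849 and 28771 at the later times, against 1134 and 1207 on day 0. Markers of some other cells fell. On day 21, 4 of 5 tested chondrocyte markers were lower than on day 0 and 1 higher. For endothelial markers these were 4 and 0 of 6, and for mesothelial ones 3 and 1 of 5. Col2a1 was at 8.54 and 29.2 on day 21, against 1916 and 1922 on day 0, while Comp was higher. Acan, Matn3 and Krt19 passed the filter only through day 0, where they are high, so their calls add no support. The part of these markers in the SLRP values was not tested, and in bulk RNA a change in the number of cells of a type cannot be told apart from a change in RNA per cell.

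Most SLRP genes sit beside each other in the genome. On chromosome 13 the order is Ecm2, Aspn, Omd and Ogn, on chromosome 10 it is Dcn, Lum, Kera and Epyc, and on chromosome 1 it is Optc, Prelp and Fmod. Bgn is on chromosome X and Podn on chromosome 4. RefSeq promoter sequences of GRCm38.p6, 250 bases before to 50 after the start site, were matched for 8 of the 10 genes. Dcn and Lum are named only. The 3 chromosome 13 promoters are shown because their genes moved the same way, and those of Prelp and Fmod because these neighbours moved in opposite directions. They lie at chr13:49544193-49544492 (Aspn, plus strand), chr13:49582212-49582511 (Omd, plus strand), chr13:49607765-49608064 (Ogn, plus strand), chr1:133921352-133921651 (Prelp, minus strand) and chr1:134037004-134037303 (Fmod, plus strand). Each is written along the gene's strand, 5′ to 3′, and capitals mark matches to the motifs searched.
Aspn: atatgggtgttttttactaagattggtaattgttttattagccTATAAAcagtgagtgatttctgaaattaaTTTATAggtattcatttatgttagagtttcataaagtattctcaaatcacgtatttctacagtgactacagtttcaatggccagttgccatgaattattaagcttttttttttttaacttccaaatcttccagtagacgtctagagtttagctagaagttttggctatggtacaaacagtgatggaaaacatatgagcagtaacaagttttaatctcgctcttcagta
Omd: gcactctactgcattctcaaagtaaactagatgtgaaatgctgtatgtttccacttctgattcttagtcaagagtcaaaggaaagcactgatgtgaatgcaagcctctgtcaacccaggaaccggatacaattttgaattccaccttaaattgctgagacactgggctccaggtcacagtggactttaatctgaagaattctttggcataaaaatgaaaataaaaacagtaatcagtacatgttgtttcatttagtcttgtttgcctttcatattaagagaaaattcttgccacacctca
Ogn: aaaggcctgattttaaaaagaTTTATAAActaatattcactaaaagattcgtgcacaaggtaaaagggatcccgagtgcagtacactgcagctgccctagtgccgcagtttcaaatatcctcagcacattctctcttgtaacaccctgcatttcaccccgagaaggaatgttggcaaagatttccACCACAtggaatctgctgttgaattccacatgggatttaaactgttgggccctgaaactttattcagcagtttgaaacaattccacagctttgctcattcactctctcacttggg
Prelp: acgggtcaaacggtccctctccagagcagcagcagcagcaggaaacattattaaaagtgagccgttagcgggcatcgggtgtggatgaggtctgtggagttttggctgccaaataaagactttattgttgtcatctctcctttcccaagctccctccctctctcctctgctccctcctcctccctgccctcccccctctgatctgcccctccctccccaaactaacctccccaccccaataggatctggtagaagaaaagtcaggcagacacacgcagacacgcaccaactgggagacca
Fmod: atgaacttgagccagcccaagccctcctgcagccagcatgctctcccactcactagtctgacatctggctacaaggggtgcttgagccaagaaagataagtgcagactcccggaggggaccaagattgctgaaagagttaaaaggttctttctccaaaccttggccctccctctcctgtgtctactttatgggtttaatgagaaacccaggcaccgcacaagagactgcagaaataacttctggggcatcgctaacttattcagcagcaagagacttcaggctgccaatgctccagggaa

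Both strands were searched for TATAAA (the TATA box), AGAACA (a glucocorticoid receptor motif), TGTGGT (the Runx core), TGANTCA (AP-1) and the CArG box of serum response factor. Of 32851 RefSeq promoters of this length, 13.6% held TATAAA, 19.0% AGAACA, 16.8% TGTGGT, 7.81% TGANTCA and 1.63% a CArG box. The Aspn window held TATAAA at -207 and, on the other strand, at -178 from the start site. In the Ogn window it stood at -229 and -227, overlapping on opposite strands, and the Runx core stood at -65 on the other strand. For Ogn alone of the printed windows, the stretch checked after the start site was not found in a GENCODE M21 transcript of the gene. Its positions therefore rest on the RefSeq start site only. Omd, Prelp and Fmod had no match in the printed windows. These matches describe letters only. The windows held 3 CpG dinucleotides in Aspn, 1 in Omd, 4 in Ogn, 7 in Prelp and 3 in Fmod, against a median of 7 over all promoters.

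After the start of differentiation most SLRP genes rose, with Omd and Aspn showing the highest folds, and Fmod was the gene that fell at every later time. By the limma fit across all genes, 8 of the 9 tested SLRP genes were higher and 1 lower on day 7 than on day 0, where 55.4% of all 13527 tested genes changed (27.5% higher, 27.9% lower). Omd, among the higher ones at each time, passed the filter of at least 10 normalized counts in at least 2 libraries only through the later days. Its calls against day 0 therefore add no support. On day 14 the counts were 7 higher and 1 lower, against a background of 70.7% changed, 35.2% higher and 35.6% lower. On day 21 they were 8 higher and 1 lower, against 59.4% changed, 29.8% higher and 29.5% lower. The median log2 fold change of the 9 genes was 1.50 on day 7, 1.63 on day 14 and 1.85 on day 21, against -0.010, 0.0027 and 0.00094 over all tested genes. The untested gene is Kera, keratocan of the cornea, which had 0 reads in all 8 libraries. In these libraries 1 read corresponds to 0.796 to 1.31 normalized counts. The floor of 3 reads chosen here corresponds to 2.39 to 3.92, and Kera below that level could have been missed at this depth.

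**Figure D1:**
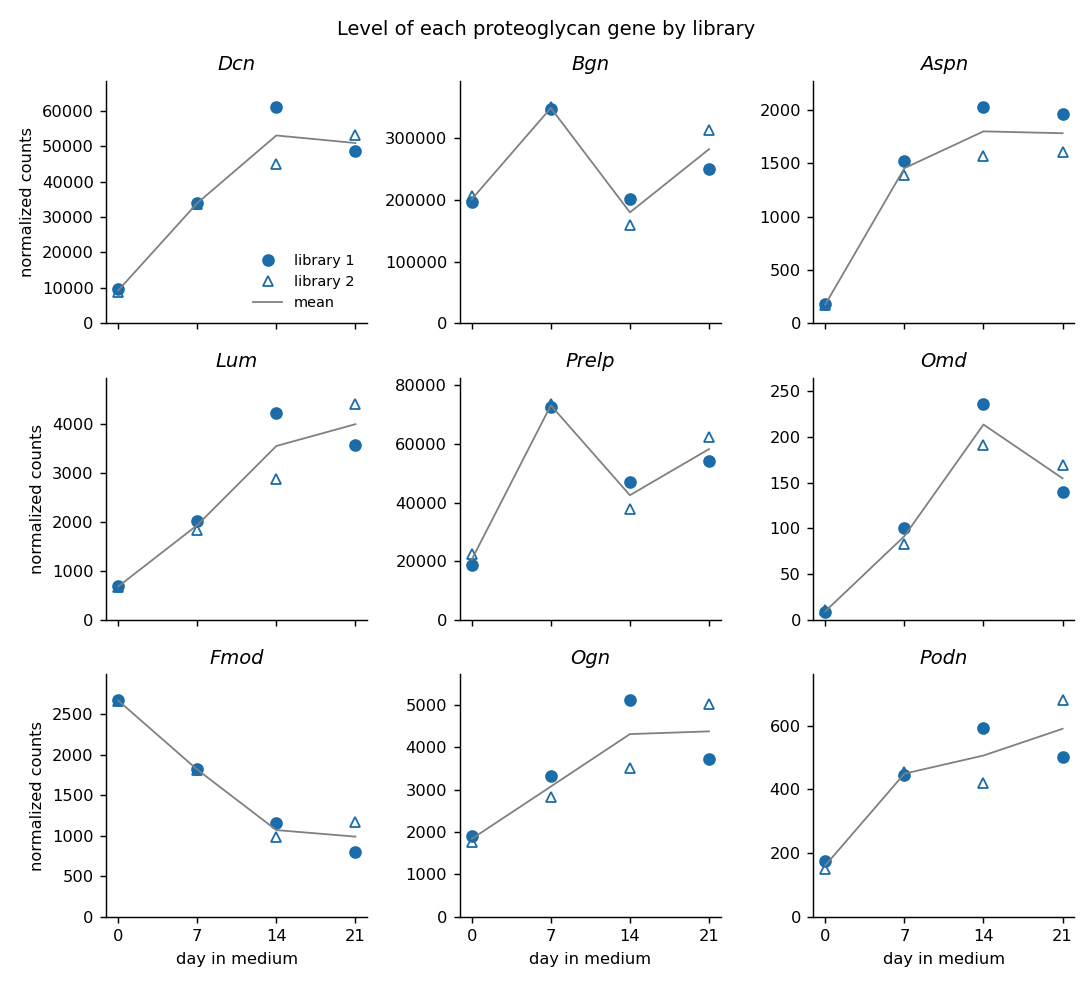
Level of each tested SLRP gene in normalized counts (y axis, linear from 0) against day in medium, with filled circles for library 1, open triangles for library 2 and a line through the mean. Bgn and Prelp peaked on day 7, Fmod was highest on day 0, and Omd climbed to 236 and 191 on day 14.

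**Figure D2:**
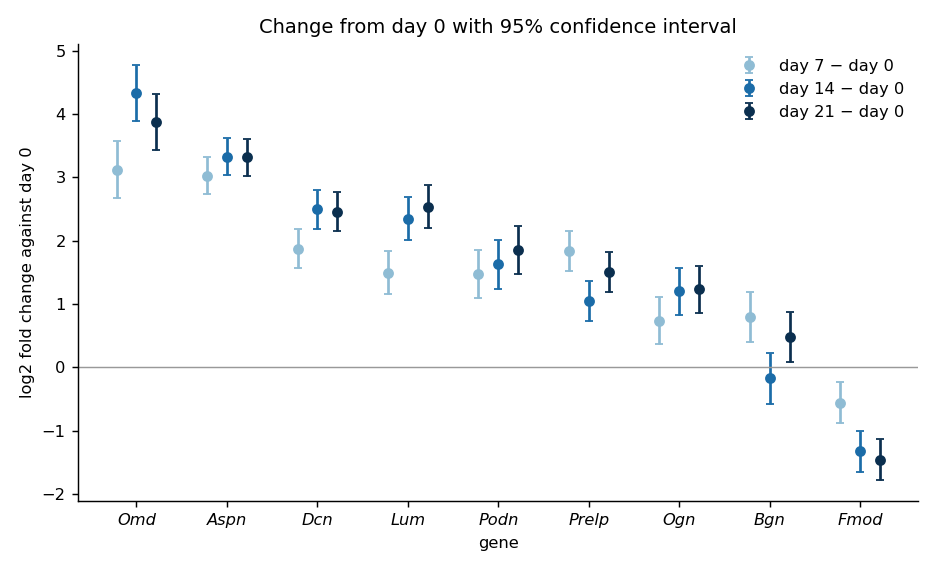
Log2 fold change against day 0 for each tested SLRP gene on days 7, 14 and 21, with 95% confidence intervals of the limma fit. Intervals of 8 genes stayed on one side of 0 at all 3 times, and that of Bgn on day 14 crossed 0.

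Decorin, a class I proteoglycan that binds collagen and TGF-beta, was expressed at a high level from the start and rose several-fold. Dcn was at 9649.7 and 8890.5 normalized counts on day 0, 34090.1 and 33755 on day 7, 61030.5 and 44978 on day 14, and 48589 and 53143 on day 21. All later libraries were above both day 0 libraries, and days 14 and 21 overlapped. On the log2 scale the change against day 0 was 1.87 ± 0.14 (SE) on day 7, 2.50 ± 0.14 on day 14 and 2.46 ± 0.14 on day 21 (limma, adjusted p = 3.20e-07, 1.43e-08 and 2.03e-08), a rise of 3.66-, 5.66- and 5.49-fold. Genes with longer transcripts were lower on day 14 as a rule, by 0.41 on the log2 scale for each doubling of exon length, and with that trend and the one with GC content removed the day 14 value of Dcn was 1.86. In the same correction its step between day 14 and day 7, 0.63 ± 0.14 (adjusted p = 0.00299), became 0.13 (adjusted p = 0.506).

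Biglycan, the closest relative of decorin and a ligand of toll-like receptors when released from matrix, had another course. Bgn was at 196497 and 205912 normalized counts on day 0, 347616 and 350771 on day 7, 200921 and 158914 on day 14, and 250769 and 313948 on day 21. Day 7 stood above every other time, and day 14 overlapped with day 0. The log2 fold change against day 0 was 0.80 ± 0.18 on day 7 (adjusted p = 0.00291) and 0.48 ± 0.18 on day 21 (adjusted p = 0.0402), while on day 14 it was -0.17 with a 95% interval of -0.57 to 0.23 (adjusted p = 0.423). Between day 14 and day 7 Bgn fell by 0.97 ± 0.18 (adjusted p = 0.00107). The call for day 21 did not hold when the first day 0 library was left out (0.45, adjusted p = 0.156), nor without the second one (0.51, adjusted p = 0.108) or the second day 21 library (0.32, adjusted p = 0.207).

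Asporin, named for a run of aspartate near its start and able to bind TGF-beta1 and collagen, had one of the steepest rises. Aspn was at 178 and 177 normalized counts on day 0, 1522 and 1388 on day 7, 2029 and 1572 on day 14, and 1963 and 1603 on day 21. The day 0 pair was far below all later libraries, and days 14 and 21 overlapped. Against day 0 the log2 fold change was 3.03 ± 0.13 on day 7, 3.32 ± 0.13 on day 14 and 3.31 ± 0.13 on day 21 (adjusted p = 2.75e-09, 7.44e-10 and 8.20e-10). Most of this difference was present by day 7: the further step to day 14 was 0.30 ± 0.13 (adjusted p = 0.0801), and it passed the threshold without the second day 14 library (0.48, adjusted p = 0.00983). With the length and GC trends removed the day 14 difference from day 0 was 2.73.

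Among the class II genes, lumican, which spaces collagen fibrils and is best known from the cornea, was higher on each of the later days than on day 0. Lum was at 701 and 669 normalized counts on day 0, 2030.4 and 1845 on day 7, 4236 and 2872 on day 14, and 3580.2 and 4417 on day 21. The times stood apart from each other except days 14 and 21, which overlapped. Lum had a log2 fold change of 1.50 ± 0.16, 2.35 ± 0.16 and 2.54 ± 0.16 on days 7, 14 and 21 (adjusted p = 5.85e-06, 6.13e-08 and 3.85e-08). Lum was higher on day 14 than on day 7 by 0.85 ± 0.16 (adjusted p = 0.000871) and on day 21 than on day 7 by 1.04 ± 0.16 (adjusted p = 0.00186). Day 21 differed from day 14 by 0.19 with a 95% interval of -0.15 to 0.53 (adjusted p = 0.372), and this step passed the test without the first day 14 library (0.47, adjusted p = 0.00922).

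Fibromodulin binds the same region of collagen I as lumican and guides collagen cross-linking. Unlike the other tested SLRP genes, Fmod declined: it was at 2674 and 2671 normalized counts on day 0, 1821 and 1816 on day 7, 1156 and 986 on day 14, and 804 and 1177 on day 21. The times did not overlap except days 14 and 21. Its log2 fold change was -0.56 ± 0.15 on day 7, -1.32 ± 0.15 on day 14 and -1.46 ± 0.15 on day 21 (adjusted p = 0.00677, 5.60e-06 and 3.37e-06). It fell by 0.77 ± 0.15 on day 14 against day 7 (adjusted p = 0.00112).

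PRELP, whose arginine- and proline-rich end binds heparan sulfate and so can tie basement membranes to collagen, is the next gene on chromosome 1 and went the other way. Prelp was at 18612 and 22662 normalized counts on day 0, 72673 and 73775 on day 7, 47169 and 37986 on day 14, and 54356 and 62259.8 on day 21. No times overlapped, with day 7 highest and day 0 lowest. Its log2 fold change against day 0 was 1.83 ± 0.15, 1.04 ± 0.15 and 1.50 ± 0.15 on days 7, 14 and 21 (adjusted p = 5.03e-07, 3.87e-05 and 2.28e-06). Against day 7, the day 14 libraries were lower by a log2 fold change of -0.79 ± 0.15 (adjusted p = 0.000850). An antisense gene, Gm15851, overlaps 350 bases of the Prelp exons (9.68%) in GENCODE M21. The strand used in counting is not given in the sources used here, so reads of that stretch cannot be told apart.

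Osteomodulin, an acidic, bone- and tooth-associated protein that binds mineral, had the highest fold of the tested SLRP genes and the lowest level. Omd was at 8.76 and 10.5 normalized counts on day 0, which are 11 and 8 reads. It was at 100.2 and 82.9 on day 7, 236 and 191 on day 14, and 139.9 and 169 on day 21. All later libraries were above day 0, and day 14 was above both other late times. In log2 terms the fold change was 3.12 ± 0.20, 4.33 ± 0.20 and 3.87 ± 0.20 on days 7, 14 and 21 (adjusted p = 9.04e-08, 2.87e-09 and 9.39e-09). With 1 added before the log these folds understate the change. Omd passed the filter on low values only through the later days, where it is high, so its calls against day 0 add no support.

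Osteoglycin, or mimecan, the class III member that was first purified from bone and that promotes regular collagen fibrils, rose modestly. Ogn was at 1902 and 1773 normalized counts on day 0, 3309 and 2831 on day 7, 5100.3 and 3513 on day 14, and 3714 and 5028 on day 21. Day 0 was below all later libraries, and days 14 and 21 overlapped. The log2 fold change was 0.74 ± 0.17, 1.20 ± 0.17 and 1.23 ± 0.17 on days 7, 14 and 21 (adjusted p = 0.00289, 4.42e-05 and 5.15e-05). The step between day 14 and day 7, 0.47 ± 0.17 (adjusted p = 0.0366), was lost without the first day 14 library (0.20, adjusted p = 0.293), without the first day 7 library (0.58, adjusted p = 0.0542) and without the second day 7 library (0.36, adjusted p = 0.220), and after length and GC correction it was 0.11 (adjusted p = 0.655).

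Podocan, a class V SLRP that restrains smooth muscle growth in mice, was at 174 and 149 normalized counts on day 0, 445 and 453 on day 7, 591 and 421 on day 14, and 501 and 679 on day 21. The later libraries all stood above day 0, and day 14 overlapped with both day 7 and day 21. The log2 fold change of Podn was 1.48 ± 0.18, 1.63 ± 0.18 and 1.85 ± 0.18 on days 7, 14 and 21 (adjusted p = 1.72e-05, 4.17e-06 and 1.85e-06). No step between later times passed the threshold, and the difference of day 21 from day 7 was 0.38 with a 95% interval of -0.0059 to 0.76 (adjusted p = 0.207).

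Between later times the SLRP genes split. On day 14 against day 7, Dcn, Lum, Omd and Ogn were higher, Bgn, Fmod and Prelp lower, and Aspn and Podn did not pass the test, so that 7 of 9 changed where 52% of all tested genes did (25% higher, 27% lower). Omd had the highest log2 fold change in this step, 1.21 ± 0.20 (adjusted p = 0.000495). Over all genes the step carried slopes of -0.39 on the log2 scale for each doubling of exon length and -0.018 for each GC percent. With both trends removed the Dcn and Ogn calls were lost, as given above. The same correction left 5535 of 13421 genes called. On day 21 against day 14, 2 of 9 changed, both higher, where 34.5% of all tested genes did (20.2% higher). The share of all genes was 18.9% without the second day 14 library and 17.0% without the second day 21 library. These were Bgn, at 0.65 ± 0.18 (adjusted p = 0.0178), and Prelp, at 0.46 ± 0.15 (adjusted p = 0.0294). Both calls were lost without the second day 14 library, with Bgn at 0.48 (adjusted p = 0.107) and Prelp at 0.30 (adjusted p = 0.176), and without the second day 21 library, with Bgn at 0.49 (adjusted p = 0.115) and Prelp at 0.36 (adjusted p = 0.159). Without the first day 14 library 4 genes were called, with Lum at 0.47 (adjusted p = 0.00922) and Podn at 0.47 (adjusted p = 0.0417) in addition. Without the second day 21 library Fmod was instead called lower, at -0.41 (adjusted p = 0.0383).

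On day 21 against day 7, 4 of 9 SLRP genes changed where 8.74% of all tested genes did (5.46% higher, 3.28% lower). That share moved with single libraries: it was 1.94% and 2.21% without the first or second day 7 library and 3.85% without the first day 21 library. Since all libraries share one estimate of the spread, it was also 5.40% and 5.43% without the first or second day 0 library and 16.0% and 16.1% without the first or second day 14 library. In each of the 4 cases that leave out a library of day 7 or 21, 2 SLRP genes were called. Lum, given above, was higher, and Fmod was lower by a log2 fold change of -0.90 ± 0.15 (adjusted p = 0.00296). Both calls held without any single library of these days. Dcn was higher by 0.58 ± 0.14 (adjusted p = 0.0264) and Omd by 0.75 ± 0.20 (adjusted p = 0.0419). The Dcn call was lost without either day 7 library (0.59, adjusted p = 0.174, without the first and 0.58, adjusted p = 0.188, without the second) and without either day 21 library (0.65, adjusted p = 0.0698, and 0.52, adjusted p = 0.0799). Omd lost its call in the same 4 cases, with values of 0.88 (adjusted p = 0.134) and 0.61 (adjusted p = 0.311) without a day 7 library and 0.89 (adjusted p = 0.0959) and 0.61 (adjusted p = 0.149) without a day 21 library.

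Biglycan transcripts outnumbered those of all other SLRP genes together in every library. Levels of different genes were compared as normalized counts per kilobase of exon, with lengths from the merged exons of coding transcripts in GENCODE M21 (1939 bases for Dcn). On that scale the 10 genes summed to 93374 and 97923 on day 0, 184919 and 186029 on day 7, 132821 and 103139 on day 14, and 147980.1 and 179522 on day 21. All later libraries were above day 0. Bgn made up 87.0% and 86.9% of the sum on day 0, 77.7% and 77.9% on day 7, 62.5% and 63.7% on day 14, and 70.1% and 72.3% on day 21. The Dcn share was 5.33% and 4.68%, 9.51% and 9.36%, 23.7% and 22.5%, and 16.9% and 15.3% at the same times. Both shares differed between times without overlap. The length matters most for Dcn, whose longest annotated transcript, one with a retained intron, has 4692 bases. With the longest annotated transcript of each gene, an alternative chosen after seeing the data, the Dcn share was 2.48% and 2.17%, 4.50% and 4.43%, 12.2% and 11.5%, and 8.37% and 7.48%, still without overlap between times. In rank per kilobase among all genes, Bgn was 2 and 1 on day 0, 3 and 3 on day 7, 7 and 11 on day 14, and 6 and 6 on day 21.

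**Figure D3:**
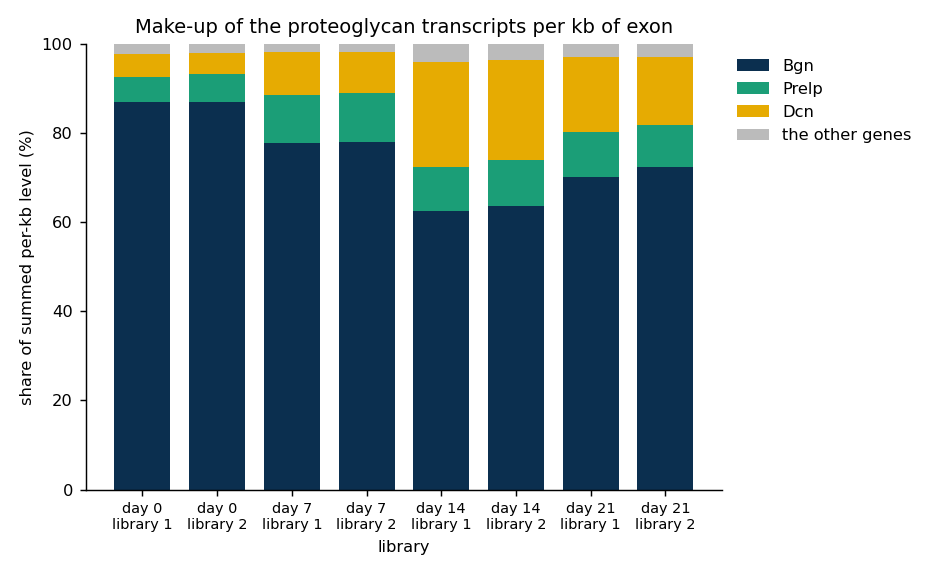
Share (%) of the summed per-kilobase level of the 10 SLRP genes taken by Bgn, Prelp, Dcn and the other genes in each of the 8 libraries. The Bgn part narrows to 62.5% and 63.7% on day 14, where Dcn takes 23.7% and 22.5%.

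The order of the genes also changed. On day 0 mean levels per kilobase were 83177 for Bgn, 5709 for Prelp, 4781 for Dcn, 857 for Fmod, 716 for Ogn, 279.8 for Lum, 75.4 for Aspn, 49.97 for Podn and 4.27 for Omd, and no neighbours in this order overlapped. On day 21 they were 116725 for Bgn, 26233 for Dcn, 16129 for Prelp, 1703 for Ogn, 1633 for Lum, 757 for Aspn, 317 for Fmod, 183 for Podn and 68.7 for Omd. Ogn, Lum and Aspn thus stood above Fmod, and Dcn above Prelp. The order of Dcn and Prelp depends on the length: with the longest annotated transcripts Dcn was at 10356 and 11326 per kilobase on day 21 and Prelp at 15036 and 17223. Ogn and Lum overlapped between libraries on days 14 and 21.

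Ratios within a library show these shifts free of its size factor. Bgn over Dcn, per kilobase, was 16.3 and 18.6 on day 0, 8.17 and 8.33 on day 7, 2.64 and 2.83 on day 14, and 4.14 and 4.74 on day 21. With the longest annotated transcripts it was 35.8 and 40.8, 17.9 and 18.3, 5.79 and 6.22, and 9.08 and 10.4 on the same days. Prelp over Fmod was 6.01 and 7.32 on day 0, 34.4 and 35.1 on day 7, 35.2 and 33.2 on day 14, and 58.3 and 45.7 on day 21. Lum over Fmod, the pair that share a collagen site, was 0.334 and 0.319 on day 0, 1.42 and 1.30 on day 7, 4.67 and 3.71 on day 14, and 5.67 and 4.78 on day 21. Lum over Dcn, neighbours on chromosome 10, stayed between 0.0433 and 0.0658 in all 8 libraries.

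**Figure D4:**
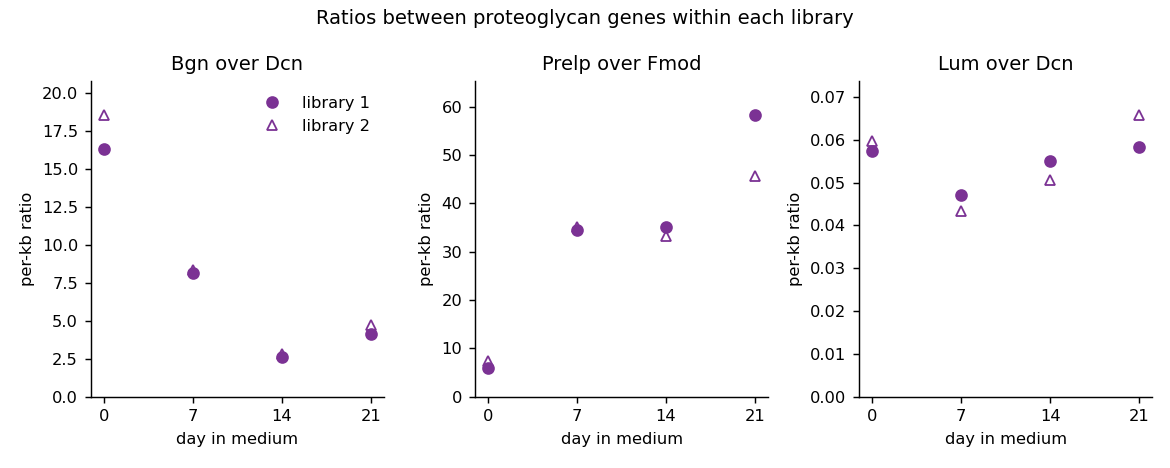
Ratio of per-kilobase levels within each library (y axes, linear from 0) against day in medium for Bgn over Dcn, Prelp over Fmod and Lum over Dcn, with circles for library 1 and triangles for library 2. Bgn over Dcn drops to 2.64 and 2.83 on day 14, Prelp over Fmod reaches 58.3 and 45.7 on day 21, and Lum over Dcn stays within 0.0433 to 0.0658.

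Neighbours on a chromosome were alike in some clusters and not in others. On chromosome 13, Ecm2, an SLRP relative beside Aspn, was at 36.6 and 39.2 normalized counts on day 0, 341 and 275 on day 7, 518 and 430.1 on day 14, and 509 and 556 on day 21, a log2 fold change of 2.98 ± 0.15, 3.60 ± 0.15 and 3.78 ± 0.15 (adjusted p = 8.25e-09, 9.68e-10 and 7.06e-10). Ecm2, Aspn and Omd thus all rose by about 3 or more on the log2 scale, and Ogn at the end of the row by no more than 1.23. On chromosome 10, Dcn and Lum had the closest courses of all 36 pairs of tested SLRP genes, with a root mean square difference of 0.22 in log2 change from day 0 over the 8 libraries. Beyond Kera in that row, Epyc, the epiphycan of growth plate cartilage, stayed low at 9.35 to 23.7 normalized counts and passed no test against day 0, with a log2 fold change of 0.54 ± 0.40 on day 21 (adjusted p = 0.267). On chromosome 1, Optc, the opticin of the eye, had 48 reads in all libraries together and was not tested.

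**Figure D5:**
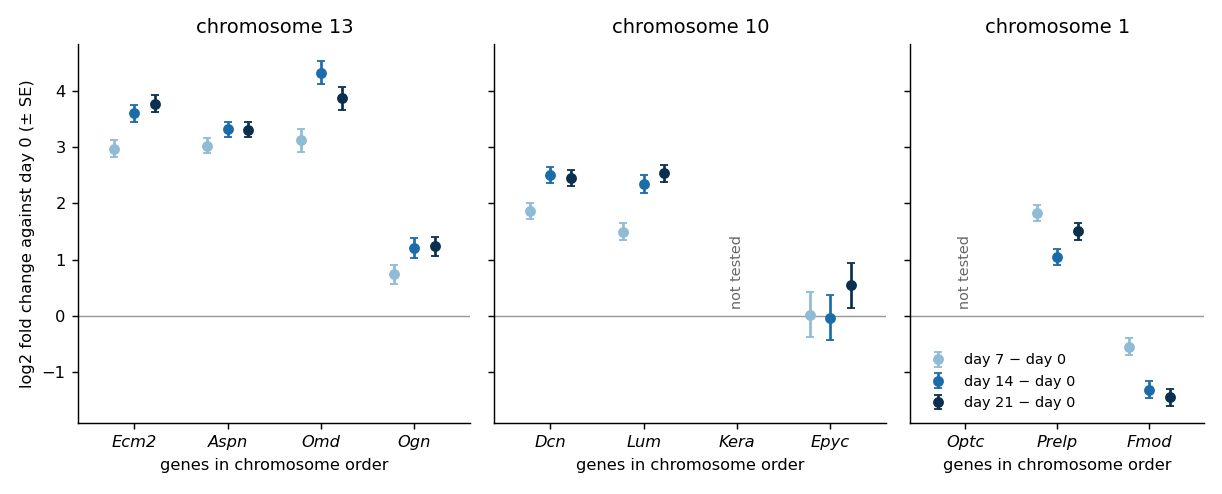
Log2 fold change against day 0 (± SE) on days 7, 14 and 21 for SLRP genes and relatives in their order on chromosomes 13, 10 and 1. Ecm2, Aspn and Omd lie near 3 and above, Dcn and Lum near each other, and Prelp and Fmod on opposite sides of 0.

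The 2 libraries of a time differed more on days 14 and 21 than before, with a chi-square per degree of freedom over genes of 4.91 on day 0, 3.48 on day 7, 19.0 on day 14 and 18.6 on day 21. The main fit pools the spread of a gene over all times, so its standard errors do not follow this difference. With only the 2 times compared in the fit, 2635 genes instead of 4664 were called for day 21 against day 14. For day 7 against day 0 it was 9070 instead of 7492. On day 14 all 9 tested SLRP genes were higher in library 1, with library 2 at 0.678 to 0.853 of it, while 50.9% of all tested genes were higher in library 1. The macrophage marker Lyz2 was at 16975 in library 1 and 31689 in library 2 of that day. On day 21, 8 of the 9 were higher in library 2, as were 52.7% of all tested genes. Aspn was the exception. Macrophage markers were mixed on day 21. Lyz2 (16693 and 15255) and Fcgr1 (15.0 and 5.84) were lower in library 2. Cd68 (320 and 575), Mrc1 (208 and 335), C1qa (913 and 1131), Csf1r and Ptprc were higher in library 2. The part of cells with these markers in the spread of either day was not tested.

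Other members of the SLRP superfamily moved in both directions. Of 9 relatives listed, 6 could be tested, and 3 were higher and 2 lower at each of days 7, 14 and 21 than on day 0. Besides Ecm2, the higher ones were Chadl, an LRR protein of cartilage, with a log2 fold change of 1.35 ± 0.20 on day 7 (adjusted p = 9.01e-05), and Nyx, the nyctalopin of retina, which averaged 26.8 normalized counts on day 21 and 2.90 on day 0. The lower ones were Podnl1, the nearest relative of podocan, which averaged 6.75, 2.99 and 7.24 normalized counts on days 7, 14 and 21, against 37.3 on day 0, and Tsku, a secreted Wnt and BMP modulator, at -0.93 ± 0.12, -1.27 ± 0.12 and -1.02 ± 0.12 (adjusted p = 4.71e-05, 1.68e-06 and 1.77e-05). Nyx passed the filter on low values only through the later days and Podnl1 only through day 0, the groups where each is high, so their calls add no support.

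Enzymes that build the chondroitin and dermatan sulfate chains of class I moved in both directions. Of 22 tested, 4 were higher and 8 lower on day 7, 4 and 16 on day 14, and 4 and 10 on day 21, with a median log2 fold change of -0.22, -0.50 and -0.15. The share called was 54.5%, 90.9% and 63.6% on those days, against 55.4%, 70.7% and 59.4% of all tested genes, which are also the shares to set beside the lists that follow. Xylt1, which starts the chain by adding xylose to the core, averaged 31.5, 6.18 and 17.1 normalized counts on days 7, 14 and 21, against 190.4 on day 0 (log2 fold change -2.55 ± 0.48, -4.98 ± 0.48 and -3.50 ± 0.48; adjusted p = 0.000699, 1.59e-06 and 4.98e-05). Chst15, which adds a further sulfate to chondroitin, went the other way, averaging 630.3, 668 and 716 at those days against 65.3 on day 0 (3.25 ± 0.11, 3.33 ± 0.11 and 3.43 ± 0.11; adjusted p = 3.38e-10, 1.71e-10 and 1.41e-10). Chst11, a chondroitin sulfotransferase, fell by 1.93 ± 0.12 on day 14 (adjusted p = 4.33e-08). Of the dermatan enzymes, the epimerase Dse differed by -0.08, -0.29 and 0.03 ± 0.11 (adjusted p = 0.570, 0.0400 and 0.826), and the dermatan sulfotransferase Chst14 by -0.24, -0.99 and -0.42 ± 0.11 (adjusted p = 0.0890, 6.57e-06 and 0.00624).

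Keratan sulfate enzymes, relevant to class II, had 2 higher and 3 lower of 8 tested on day 7, 1 and 5 on day 14, and 1 and 3 on day 21, with a median log2 fold change of -0.29, -0.55 and -0.0032. These are 62.5%, 75% and 50% of the list, near the shares of all genes. B3gnt2, which extends the chain, was higher at all 3 times, by 0.77, 0.80 and 0.62 ± 0.14 (adjusted p = 0.000431, 0.000188 and 0.00165). Chst1, a keratan sulfotransferase, averaged 23.4, 12.2 and 13.7 normalized counts on days 7, 14 and 21, against 73.8 on day 0 (adjusted p = 0.00127, 2.03e-05 and 5.54e-05).

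Ligands and receptors of SLRPs were mixed, with 7 higher and 3 lower of 16 tested on day 7, 6 and 6 on day 14, and 8 and 3 on day 21, and a median log2 fold change of 0.32, 0.079 and 0.43. The shares called, 62.5%, 75% and 68.8%, were near those of all genes. The TGF-beta ligands differed from day 0 by less than 1 on the log2 scale at each time. Tgfb1 differed from day 0 by -0.01, -0.76 and -0.32 ± 0.11 on days 7, 14 and 21 (adjusted p = 0.950, 3.67e-05 and 0.0206). Tgfb2 differed by -0.54, -0.98 and -0.13 ± 0.13 (adjusted p = 0.00397, 2.82e-05 and 0.411) and Tgfb3 by 0.12, 0.36 and 0.04 ± 0.09 (adjusted p = 0.253, 0.00227 and 0.698). The co-receptor betaglycan, Tgfbr3, rose by 2.36, 1.56 and 2.38 ± 0.11 (adjusted p = 6.04e-09, 1.35e-07 and 3.89e-09). Tlr2, a receptor for soluble biglycan that macrophages also carry, rose by 1.36, 1.82 and 2.11 ± 0.16 (adjusted p = 1.90e-05, 8.44e-07 and 3.02e-07) beside the rise of the macrophage markers. Lrp1, an endocytic receptor that binds decorin, was lower on day 14 by a log2 fold change of -1.58 ± 0.17 (adjusted p = 3.78e-06).

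Genes for collagen I, whose fibrils SLRPs bind, fell on all 3 later days. Of 18 collagen fibril genes, 9 were higher and 4 lower on day 7, 3 and 10 on day 14, and 9 and 5 on day 21, with a median log2 fold change of 0.32, -0.55 and 0.35, and 72.2%, 72.2% and 77.8% called. Col1a1 averaged 68602, 22418 and 54047 normalized counts on days 7, 14 and 21, against 249947 on day 0 (adjusted p = 2.57e-06, 5.72e-09 and 3.89e-07). Col1a2 differed by -0.85, -1.89 and -1.09 ± 0.17 (adjusted p = 0.000898, 6.95e-07 and 0.000119), and Col5a1, which seeds thin fibrils, by -1.36, -3.12 and -1.86 ± 0.14 (adjusted p = 5.13e-06, 1.88e-09 and 2.34e-07). Its partner chain Col5a2 differed by -0.17, -1.63 and -0.84 (adjusted p = 0.410, 2.74e-06 and 0.000900), so that it did not pass the test on day 7. Dpt, the decorin-binding protein dermatopontin, rose by 1.90, 3.63 and 3.53 ± 0.10 (adjusted p = 1.22e-08, 5.58e-11 and 7.66e-11). Fbln1, a fibulin of elastic and basement matrices, was higher by 2.46 ± 0.15 on day 7 (adjusted p = 6.15e-08), and Comp, a collagen-binding thrombospondin, by 2.76 ± 0.18 on day 21 (adjusted p = 6.06e-08).

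Of 10 tested proteases that process or cleave SLRPs, 5 were higher and 2 lower on day 7, 3 and 4 on day 14, and 6 and 4 on day 21, with a median log2 fold change of 0.55, -0.14 and 0.55. The shares called were 70%, 70% and 100%, and on day 14 that is close to the share of all genes. Bmp1, which removes the biglycan propeptide, differed by 0.46, -0.25 and 0.32 ± 0.12 (adjusted p = 0.00532, 0.0781 and 0.0338), and its relative Tll1 fell by 2.45, 2.58 and 2.34 ± 0.17 (adjusted p = 1.37e-07, 4.82e-08 and 1.45e-07). Mmp3, the stromelysin that cuts decorin, averaged 48219.7, 81733 and 81499 normalized counts on days 7, 14 and 21, against 5830.0 on day 0 (adjusted p = 2.58e-08, 1.95e-09 and 2.57e-09). Mmp9, a gelatinase that macrophages also make, averaged 114 ± 22.2 and 145 ± 117 on days 14 and 21 (SD, n = 2 each), against 2.25 ± 1.33 on day 0, and passed the filter only through the days where it is high.

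The genes whose course was most like that of an SLRP gene were sought among 11235 others, by the root mean square difference in log2 change from day 0 over all 8 libraries. Nearest to Dcn were Nampt (0.11) and Dpp7 (0.14), to Bgn Adamtsl4 (0.09) and Rgmb (0.09), and to Lum Angpt1 (0.16) and Igfbp4 (0.18). Aspn was nearest to Serping1 (0.13) and to Chst15 (0.16), the chondroitin sulfotransferase described above. Omd was nearest to Ifi205 (0.20) and Cyp27a1 (0.23), and Ogn to Slc43a1 (0.14) and Glt8d2 (0.16). For Prelp the nearest were Ampd3 (0.11) and Slco3a1 (0.12), for Podn Eya2 (0.12) and Aass (0.13), and for Fmod Zfyve28 and Fmnl3 (0.14 and 0.15). These are descriptions of likeness over 8 libraries that share their day 0 baseline.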

How the data were processed

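The values deposited by the authors are a signal, the reads of a gene scaled by 1 size factor for each library. TopHat2 2.0.11, HTSeq 0.6.1, DESeq and the mouse genome mm9 appear in the submitters' processing notes, with no roles given; the annotation is not given in the sources used here. Per the labels' protocols, RNA came from an RNeasy Plus Mini Kit and standard Illumina libraries. Whole reads were recovered from the steps of the values (100% whole within 0.01 reads). Values plus 1 were log2-transformed, and the 13527 genes with at least 10 in at least 2 of 8 libraries were fitted with limma 3.58.1 (trend, 4 residual and 8.16 prior degrees of freedom). P-values were adjusted over all of them by the Benjamini-Hochberg method, with calls below 0.05. Errors are standard errors of that fit. Alternatives used edgeR 4.0.16 and DESeq2 1.42.0 on the recovered reads, other pseudocounts, filters and scalings, fewer libraries, and a length and GC correction. The fit was also run on simulated data with a small part of the genes changed, and only at day 7. Far more genes were called in the real data, so that run does not set the error rate here. Lengths, GC content and gene order came from GENCODE M21 and RefSeq on GRCm38.p6, matched by symbol for 98.4% of genes. Pathway genes named are the called ones with the largest rise or fall in their list against day 0, plus a few always given. Chadl was named after its values were seen, and Col5a2 was named outside this rule as the partner chain of Col5a1. Not every gene that met the rule is named. Among them is Itga2, the largest fall among ligands and receptors, which passed the filter only through day 0. The SLRP genes and the lists were chosen with earlier results of these data known.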

Additional observations from a re-analysis of the deposited data

How the results depend on the processing

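Over 18 alternative settings, 756 values of single SLRP genes were recomputed: 699 kept direction and call, 36 lost the call, 8 gained it and 13 changed sign, none of these 13 called at first. Against day 0 every call except that of Bgn at day 21 held in every alternative, and that one ranged between 0.32 and 0.64 with adjusted p = 0.161 without a filter on low values and 0.127 (0.35 on the log2 scale) after length and GC correction. For day 21 against day 14, the count of 2 became 0 without a filter and 0 with only the 2 times in the fit, and 1 after length and GC correction. For day 21 against day 7, the count of 4 became 2 without a filter and 2 after that correction. The cause was not tested. Leaving out 1 library of the days compared gave 9 to 9 calls for day 7, 8 to 8 for day 14 and 8 to 9 for day 21 against day 0, 6 to 8 for day 14 against 7, 0 to 4 for day 21 against 14 and 2 to 2 for day 21 against 7. Signs turned without the first day 14 library for Podn (day 14 against 7, -0.094, against 0.40 without the second) and, for day 21 against 14, Dcn (0.18) and Aspn (0.17). For day 21 against 14 they also turned without the second day 14 library for Lum (-0.091), Ogn (-0.24) and Podn (-0.020), without the first day 21 library for Dcn (0.02) and Fmod (0.14), and without the second for Ogn (-0.19) and Aspn (0.14). Without 1 library the values of day 21 against 14 spanned -0.26 to 0.18 for Dcn, -0.091 to 0.47 for Lum, -0.41 to 0.14 for Fmod, -0.24 to 0.30 for Ogn and -0.020 to 0.47 for Podn. Length and GC correction turned Aspn (day 14 against 7, -0.15; day 21 against 14, 0.22) and Dcn (day 21 against 14, 0.22). Libraries with the same replicate number did not deviate together (correlations of -0.036 to 0.074), so the number was not read as a pairing; with a replicate block the counts were 9, 8, 8, 7, 2 and 3 in the order above, with Bgn at day 21 (adjusted p = 0.0719), Ogn at day 14 against 7 (0.0507) and Omd at day 21 against 7 (0.0634) lost and Aspn at day 14 against 7 (0.0412) gained. Over all genes edgeR called 7581, 9633, 8055, 7167, 4820 and 1361 in that order. The limma counts of 4664 for day 21 against 14 and 1182 for day 21 against 7 became 2635 with only the 2 times in the fit and 739 without a filter; without 1 library they spanned 2303 to 5750 and 262 to 2173. Among SLRP genes edgeR called Omd lower at day 21 against 14 (-0.49, adjusted p = 0.0386) and DESeq2 called Ogn higher at day 21 against 7 (0.51, adjusted p = 0.0306). Depth limits Omd at day 0 and Kera throughout.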
